A study of Homo sapiens with 24 samples.

Results

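The change of the decitabine response of ELF-153 cells between 2 harvests was examined: the decitabine effect at 144 h (treated minus untreated, log2) less the decitabine effect at 96 h. It rests on 12 of the 24 libraries of the series, chosen by their cell line, with 3 libraries in each of 4 groups, and on every gene measured in both harvests. ELF-153 is a human acute myeloid leukaemia (AML) cell line. The 4 groups were ELF-153 untreated at 96 h, ELF-153 with decitabine at 96 h, ELF-153 untreated at 144 h and ELF-153 with decitabine at 144 h. Decitabine (DAC) was given at 100 nM on 4 days in a row with a daily change of medium, and all 4 groups grew in RPMI with antibiotics (penicillin and streptomycin), 20% fetal calf serum and GM-CSF at 5 ng/ml. The labels do not say from when the hours were counted, nor whether drug was present after the 4 days. The other 12 libraries are the same design in UCSD-AML1, a second AML line. They do not enter the size of a difference in ELF-153. The tests and intervals, however, took their estimate of spread from all 24 libraries of both lines. Total RNA depleted of ribosomal RNA was sequenced. The libraries are called technical triplicates in the labels and each line is 1 culture model, so the p-values given here speak of variation among libraries, which may be technical.

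Decitabine is a cytidine analogue that is built into DNA and traps DNA methyltransferases there, so that daughter strands lose methylation over rounds of division. In leukaemia cells it is known to switch on germline genes silenced by methylation, to induce the interferon program through double-stranded RNA of endogenous repeats, to slow the cell cycle and to push cells towards differentiation. A gene freed directly by loss of methylation and a gene that follows through signalling or differentiation need not keep the same time course, which is what a second harvest can show.

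The ELF-153 libraries held 13.15 to 28.53 Mreads assigned to transcripts. Mitochondrial ribosomal RNA took 25.2% ± 11.1 (SD, n = 3) of the reads in untreated and 43.4% ± 6.25 in treated libraries at 96 h, and 24.3% ± 12.1 and 47.0% ± 5.79 at 144 h. Untreated replicate 1 at 144 h, at 38.2%, stood apart from replicates 2 and 3, at 16.6% and 18.1%. The part of this share in the results was not tested beyond the fits with it as a covariate or with it left out of the totals, given with the counts. Each harvest is a table that the authors scaled on its own, so only changes within a harvest were compared, levels are given side by side, and harvest and any difference in how the tables were made cannot be told apart. For the same reason it cannot be told apart whether the untreated or the treated side carries a difference. In bulk RNA fewer cells of a type and less RNA per cell cannot be told apart.

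Few genes had a decitabine response that differed between the harvests past the test, and all of them had the larger rise at 144 h. Of 17871 genes tested, DAC changed 3573 upwards (20.0%) and 2505 downwards (14.0%) at 96 h, and 3958 upwards (22.1%) and 3591 downwards (20.1%) at 144 h (limma, Benjamini-Hochberg adjusted p below 0.05). Among called genes the share of rises was 58.8% at 96 h and 52.4% at 144 h, and 62.2% and 62.6% with library totals that left out mitochondrial RNA. The difference between the harvests was past the threshold for 8 genes, all higher (0.0448%), and for no lower gene (0.0%). At an unadjusted p below 0.05, 457 genes (2.56%) were higher and 594 (3.32%) lower, and the smallest adjusted p of a lower gene was 0.142. This balance turned with some other scalings and tools: 554 higher and 404 lower with TMM scaling in limma, 625 and 393 with totals without mitochondrial RNA, 510 and 396 in edgeR and 567 and 406 in DESeq2. It did not turn with the mitochondrial ribosomal RNA share as a covariate (750 and 1420), a replicate block (479 and 701) or a filter of 50 in 3 libraries (278 and 435). On the recovered reads, edgeR's quasi-likelihood test called 7 genes higher and 0 lower, DESeq2 23 and 2, and limma-voom 2 and 0. With the mitochondrial ribosomal RNA share as a covariate limma called 41 higher and 19 lower, and with the 12 ELF-153 libraries alone 2 and 0.

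The effects at the 2 harvests lay close to each other over all genes. Across the 17871 genes, which are not independent replicates, Pearson's r between the effect at 96 h and the effect at 144 h was 0.917. DAC effects were past the threshold at both harvests for 5069 genes, of which 2920 were higher and 2147 lower both times. The effect at 144 h was the larger one in 1835 of the 2920 risen genes (62.8%, median difference 0.14 on the log2 scale) and in 1639 of the 2147 fallen genes (76.3%, median difference −0.23). Over all genes tested the median difference was −0.08, with 43.4% of genes above 0 and 56.6% below 0. The median became 0.03 with totals without mitochondrial RNA, a shift of more than 0.1, so the medians of gene lists are read against it. A further 1009 genes were called at 96 h alone and 2480 at 144 h alone, and for 1 of these genes, MECOM, the difference itself passed the test. MECOM was kept for testing only through its DAC libraries at 144 h.

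**Figure D1:**
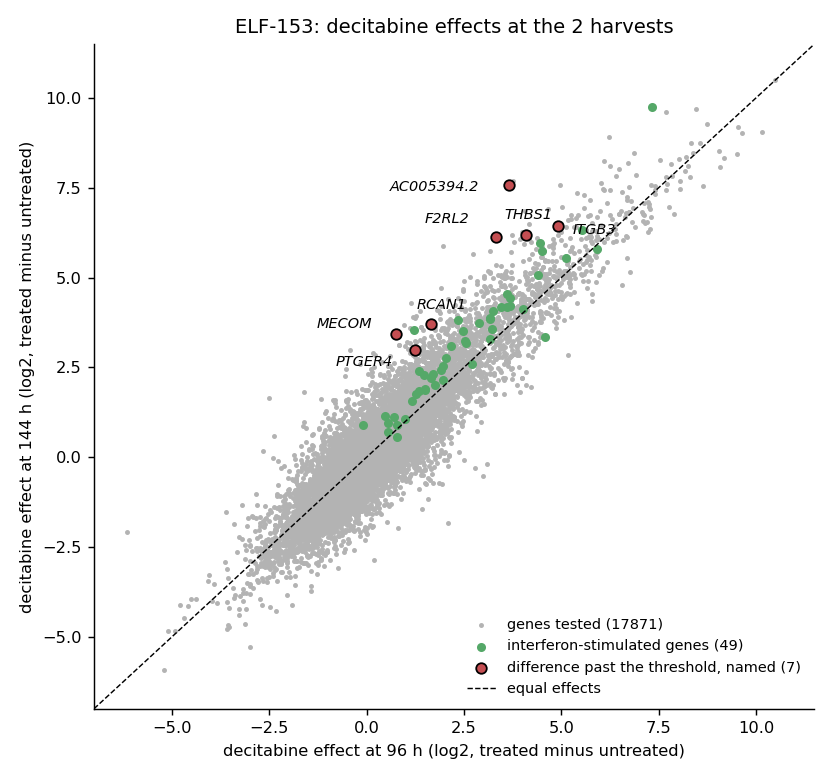
Decitabine effect at 144 h against the effect at 96 h (both log2, treated minus untreated) for the 17871 genes tested in ELF-153, with the line of equal effects. The 7 genes marked, whose effects differed past the threshold, all lie above the line, and most of the 49 interferon-stimulated genes tested lie above it.

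The 95% interval of the difference reached 1.04 on either side in the median gene, a 2.06-fold change. In counts simulated from these libraries over 17343 genes, the same fit called 3 of 66 genes (4.5%) with a 2-fold, 32 of 66 (48.5%) with a 4-fold and 51 of 65 (78.5%) with an 8-fold difference. For 441 genes (2.47%) the interval lay within 1.5-fold either way.

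Of the 8 genes, 7 are described here: a platelet group, signalling genes, a transcription factor and a non-coding RNA. F2RL2 and the RNA AC005394.2 are named because they passed the test and not by the rule for named genes. All values by library are scaled reads, the reads assigned to a gene divided by the size factor of the library, listed for replicates 1, 2 and 3.

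THBS1 (chromosome 15) encodes thrombospondin-1, an adhesive glycoprotein of platelet granules. It stood at 48.2, 70.7 and 60.1 untreated and at 1105, 967 and 985 with DAC at 96 h. At 144 h it stood at 36.3, 32.0 and 39.5 untreated and at 2472, 2619 and 2890 with DAC. Treated and untreated libraries did not overlap at either harvest, and the gap was wider at 144 h. The effect was 4.09 at 96 h and 6.17 at 144 h, a difference of 2.09 ± 0.25 (SE, 95% interval 1.56 to 2.61, adjusted p = 0.000351). The transcript THBS1-201 held 7931 of the 8190 treated reads at 144 h.

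ITGB3 (chromosome 17) encodes integrin beta 3, the subunit that pairs with integrin alpha IIb as the fibrinogen receptor of platelets. It stood at 34.7, 49.2 and 40.1 untreated and at 1498, 1083 and 1245 with DAC at 96 h, and at 31.9, 39.1 and 36.3 untreated and 3036, 3076 and 3339 with DAC at 144 h. Treated and untreated libraries did not overlap at either harvest, and levels of the 2 harvests have no common scale. The effect was 4.92 and then 6.42, a difference of 1.51 ± 0.21 (1.08 to 1.94, adjusted p = 0.00159). Its partner ITGA2B, named after its values were seen, showed effects of 0.90 and 1.19, with a difference of 0.30 ± 0.27 (−0.26 to 0.86) that did not pass the test.

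RCAN1 (chromosome 21) encodes a regulator that binds and inhibits the phosphatase calcineurin. It stood at 31.4, 25.6 and 27.3 untreated and at 109, 99.4 and 67.5 with DAC at 96 h, and at 11.6, 11.8 and 7.47 untreated and 128, 141 and 169 with DAC at 144 h. Treated libraries were higher at both harvests without overlap. The effect was 1.65 and then 3.72, a difference of 2.07 ± 0.32 (1.40 to 2.73, adjusted p = 0.00793).

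PTGER4 (chromosome 5) encodes the prostaglandin E2 receptor EP4. It stood at 26.9, 16.4 and 25.5 untreated and at 61.6, 45.4 and 56.8 with DAC at 96 h, and at 17.4, 15.4 and 10.7 untreated and 112, 117 and 133 with DAC at 144 h. Again no treated library overlapped an untreated one. The difference was 1.76 ± 0.30 (1.14 to 2.38, adjusted p = 0.0203), from effects of 1.23 and 2.99. The call was lost without untreated replicate 3 or DAC replicate 2 or 3 at 96 h, and without untreated replicate 3 or any DAC library at 144 h (adjusted p of 0.0526 to 0.0907).

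F2RL2 (chromosome 5) encodes protease-activated receptor 3 of the thrombin receptor family. It stood at 5.601, 3.07 and 0.911 untreated and at 31.3, 49.7 and 31.3 with DAC at 96 h. At 144 h 1 read was left in the untreated group (0.726, 0 and 0), against 75.0, 117 and 64.8 with DAC. The ratio at 144 h was 274 with a counting interval of 48.7 to 10800. The fitted difference was 2.79 ± 0.49 (1.78 to 3.80, adjusted p = 0.0252). The call was lost without untreated replicate 2 or DAC replicate 1 or 3 at 96 h, and without untreated replicate 2 or 3 or DAC replicate 1 or 2 at 144 h (adjusted p of 0.0637 to 0.129). For F2RL2 it was also lost in edgeR (adjusted p = 0.201 with TMM and 0.2 with RLE factors), DESeq2 (0.164) and limma-voom (0.507). In limma with the 12 ELF-153 libraries alone the adjusted p was 0.965, and with a replicate block 0.0536.

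MECOM (chromosome 3) encodes EVI1, a zinc finger transcription factor of blood stem cells and of a poor-risk class of AML. It was at the edge of detection in ELF-153, with 0, 3.07 and 1.82 untreated and 2.84, 2.62 and 2.94 with DAC at 96 h, groups that overlapped and whose difference was not called (adjusted p = 0.077). At 144 h it stood at 0.726, 0 and 0 untreated, from 1 read, and at 12.8, 10.1 and 13.2 with DAC, from 37 reads. The ratio at 144 h was 37.8 with a counting interval of 6.37 to 1530. The transcript MECOM-206 held 28 of the 37 reads (75.7%). The fitted difference was 2.68 ± 0.46 (1.74 to 3.63, adjusted p = 0.0203). This call was lost without untreated replicate 3 or DAC replicate 2 or 3 at 96 h, and without untreated replicate 3 or DAC replicate 1 or 3 at 144 h (adjusted p of 0.0588 to 0.0774). The call was also lost in edgeR (adjusted p = 0.439 with TMM and 0.426 with RLE factors), DESeq2 (0.297) and limma-voom (0.345). In limma with the 12 ELF-153 libraries alone the adjusted p was 0.979, and with a replicate block 0.0536. MECOM reached the filter of 10 or more in 3 libraries only through its DAC libraries at 144 h. It was thus tested only because the group that makes the difference positive was high.

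AC005394.2 is a non-coding RNA of chromosome 19 with no known role, in GENCODE a gene that overlaps other non-coding genes on its own strand, so reads they share are uncertain. It stood at 8.96, 3.07 and 5.47 untreated and at 82.4, 92.4 and 67.5 with DAC at 96 h. At 144 h no read was counted untreated, and the treated libraries stood at 182, 188 and 199. Against a floor of 3 reads over the untreated group it was at least 199-fold higher at 144 h. The fitted difference was 3.91 ± 0.43 (3.01 to 4.81, adjusted p = 0.000136).

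**Figure D2:**
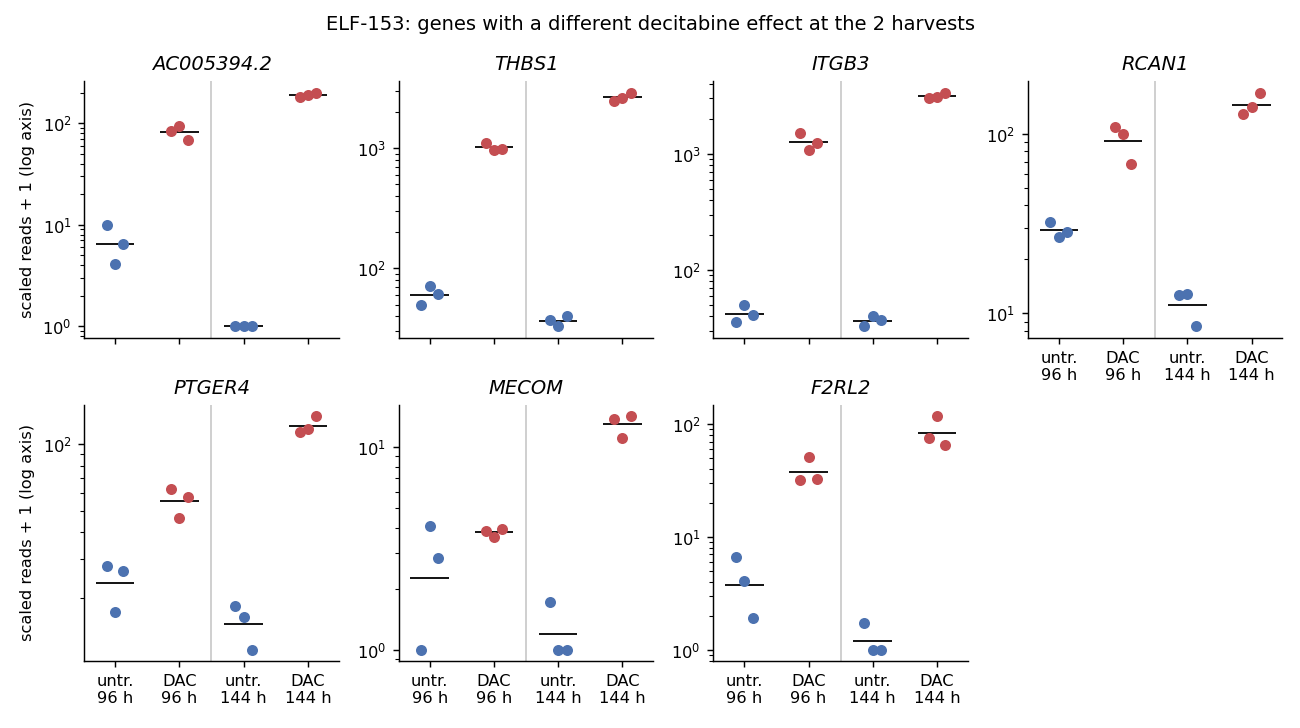
Scaled reads plus 1 (log axis, a scale of its own per gene) in each of the 12 ELF-153 libraries for 7 genes past the threshold, with untreated libraries in blue, DAC libraries in red, a bar at the mean of the log values and a line between the separately scaled harvests. Treated and untreated libraries are apart at both harvests for every gene but MECOM at 96 h.

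THBS1, RCAN1, ITGB3 and AC005394.2 stayed past the threshold whichever of the 12 libraries was left out. THBS1 and AC005394.2 were called in all 25 alternatives tried, RCAN1 and ITGB3 in 22, PTGER4 in 15, MECOM in 11 of 24 and F2RL2 in 10. The 3 alternatives that ended the calls of RCAN1 and ITGB3 were limma-voom (adjusted p = 0.15 and 0.0833), the 12 ELF-153 libraries alone (0.425 and 0.302) and a replicate block (0.0536 for both).

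**Figure D3:**
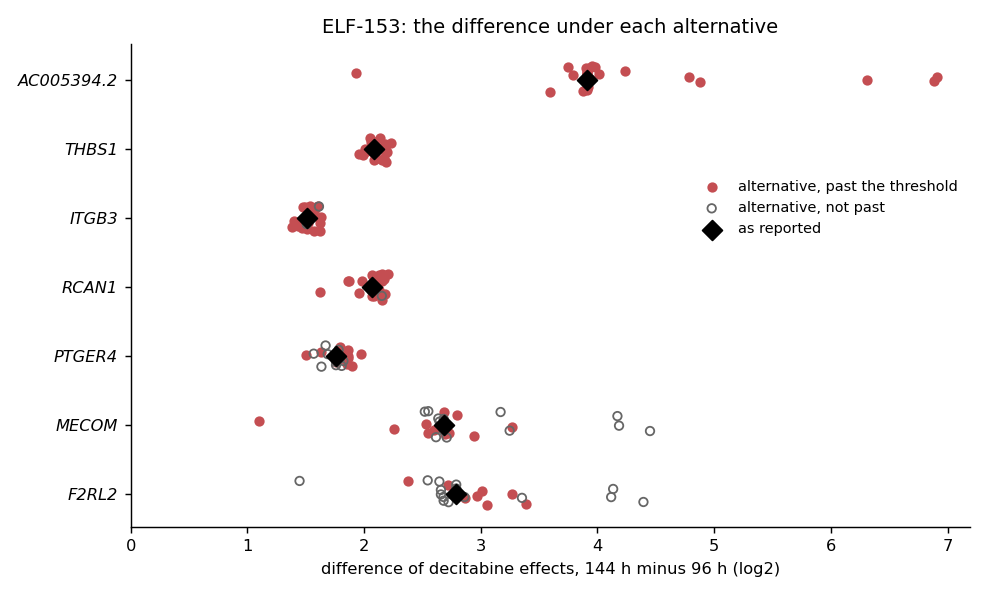
Difference of decitabine effects (log2, 144 h minus 96 h) for 7 genes as reported (diamond) and under each alternative, filled where it passed the threshold of 0.05 and open where it did not. THBS1 and AC005394.2 have filled points only, and the near-0 genes AC005394.2, MECOM and F2RL2 spread most in size.

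DNA methylation lies on CG pairs, which were counted in the region before each gene's start. Methylation itself was not measured here. RefSeq (GRCh38.p14) has a promoter entry for THBS1, F2RL2, RCAN1, PTGER4 and MECOM among the 7 genes. The 250 bases before the start held 24 CG pairs for THBS1 and 26 for PTGER4, but 3 for F2RL2, against a median of 11 over 35116 promoters. The upstream starts of RCAN1 had 30, 35 and 5, its internal starts 1, 1 and 4, and those of MECOM 14, 8 and 14, so the called genes and their own starts differ widely in this feature. A region with many and one with few are shown with CG in capitals, THBS1 from chr15:39580829-39581078 on the plus strand and F2RL2 from chr5:76623404-76623653 on the minus strand.
THBS1: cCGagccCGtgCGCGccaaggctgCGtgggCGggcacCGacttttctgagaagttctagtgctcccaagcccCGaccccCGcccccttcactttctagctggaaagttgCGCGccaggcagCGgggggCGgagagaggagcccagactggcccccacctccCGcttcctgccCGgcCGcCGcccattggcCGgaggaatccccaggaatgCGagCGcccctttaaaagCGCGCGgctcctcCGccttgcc
F2RL2: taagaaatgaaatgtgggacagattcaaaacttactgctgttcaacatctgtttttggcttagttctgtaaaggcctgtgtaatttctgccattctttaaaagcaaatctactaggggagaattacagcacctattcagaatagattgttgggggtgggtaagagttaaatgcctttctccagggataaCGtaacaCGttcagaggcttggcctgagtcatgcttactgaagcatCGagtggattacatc

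The mix of RCAN1 transcripts differed between treated and untreated libraries. RCAN1 has upstream starts and, more than 1000 bases away within the gene, internal starts, whose product is known as the form induced by calcineurin and NFAT signalling. Transcripts that begin within 1000 bases of a RefSeq upstream start held 53 of 83 untreated reads at 96 h (63.9%) and 20 of 33 at 144 h (60.6%). With DAC they held 96 of 298 (32.2%) and 72 of 448 (16.1%). Transcripts from the internal starts went from 4 reads (4.8%) to 111 (37.2%) at 96 h, and from 5 (15.2%) to 223 (49.8%) at 144 h. In scaled reads by library, the internal starts stood at 1.12, 3.07 and 0 untreated and 35.0, 37.5 and 30.3 with DAC at 96 h, and at 2.90, 0 and 1.07 untreated and 56.7, 74.3 and 87.8 with DAC at 144 h, with no overlap at either harvest. The upstream starts stood at 19.04, 16.4 and 18.2 untreated and 38.8, 32.3 and 17.6 with DAC at 96 h, where the groups overlapped, and at 5.81, 11.8 and 2.14 untreated and 22.9, 20.2 and 27.5 with DAC at 144 h, where they did not. The remaining reads lay on transcripts that begin elsewhere, and reads shared by transcripts may have been left out by the authors' counting, so the shares are of assigned reads only. No test was run on transcripts.

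**Figure D4:**
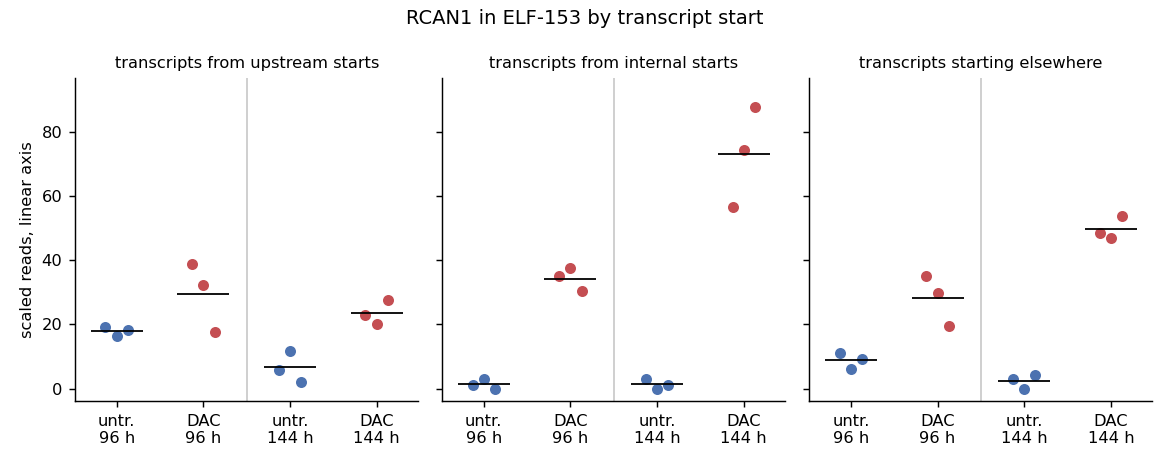
Scaled reads (linear axis) of RCAN1 transcripts from upstream starts, from internal starts and from elsewhere, in each ELF-153 library, with the mean as a bar. At 144 h the treated libraries stand highest for the internal starts, at 56.7 to 87.8, while at 96 h the highest treated library is of the upstream starts, at 38.8.

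The 250 bases before the RefSeq start nearest to that of RCAN1-202 (chr21:34526823-34527072, minus strand, GRCh38.p14, RefSeq) are printed because RCAN1-202 held most of the reads of the internal starts with DAC at 144 h, 130 of 223. The GENCODE start of RCAN1-202, at 34526963, lies inside this region, so part of it is transcribed in that transcript. Capitals mark matches, on either strand, to GGAAAA, the core bound by NFAT factors (3 matches), to TGACGTCA, the cyclic AMP response element (1), and to TGACTCA, an AP-1 site (1).
RCAN1: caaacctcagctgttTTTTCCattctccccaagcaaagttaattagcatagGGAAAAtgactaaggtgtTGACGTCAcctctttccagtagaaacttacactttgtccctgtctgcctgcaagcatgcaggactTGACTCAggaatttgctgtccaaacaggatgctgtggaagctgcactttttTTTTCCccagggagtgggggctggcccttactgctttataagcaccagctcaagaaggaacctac
Of all 35116 promoters, 21.19% held GGAAAA, 1.65% TGACGTCA and 4.2% TGACTCA in their 250 bases. The F2RL2 region also held 1 match to TGACTCA, on the opposite strand. Before 1 start of MECOM lay 1 match to GGAAAA and 1 to the GATA motif. GGAAAA also lay before a start of IFI44L, of OAS3 and of RSAD2. In IFI44L and OAS3 these matches overlap matches to the interferon motif. Before at least 1 start it lay in 47.5% of the 40 tested interferon-stimulated genes with an entry. Counted in the same way, it lay in 24.86% of all 27305 genes with an entry. In all 7 motifs were looked for, the others being the GATA motif AGATAA (9.17%), the ETS motif CCGGAA (14.53%), 1 spelling of the serum response element (0.03%) and the interferon motif given with the interferon genes. A match is a description and not a site in use.

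Interferon-stimulated genes, the antiviral program switched on by type I interferon, were raised at both harvests and lay mostly above equal effects. Of 52 listed genes 49 passed the filter on low values, and the counts that follow describe those. DAC raised 46 of them at 96 h and 48 at 144 h, against 20.0% and 22.1% of all genes, and lowered none. The difference was above 0 in 45 of 49, against 43.4% of all genes, with a median of 0.59 against −0.08 for all genes tested, and a median of 0.57 over the 40 genes above a mean of 3 reads per library in every group. None passed the adjusted threshold, while 15 were higher and 1 lower at an unadjusted p below 0.05, against 2.56% and 3.32% of all genes. The median of the list less that of all genes lay between 0.53 and 0.76 as reported and in the 25 alternatives.

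RSAD2, the antiviral enzyme viperin, had the smallest p of the list. It stood at 129, 174 and 193 untreated and at 3753, 3940 and 3544 with DAC at 96 h, and at 136, 101 and 109 untreated and 5050, 7100 and 6480 with DAC at 144 h. The groups did not overlap. The effects were 4.51 and 5.74, a difference of 1.23 ± 0.26 (0.69 to 1.76) with an adjusted p of 0.141. It passed the threshold with edgeR (adjusted p = 0.0347 with TMM and 0.0378 with RLE factors) and with DESeq2 (0.000721), and in 7 of 25 alternatives in all, among them those without untreated replicate 1 at 96 h (0.0388) or at 144 h (0.0442). IFI44L and OAS3, which follow by p, were named after their values were seen. IFI44L, an interferon-induced gene, went from 1.97 ± 0.81 (SD, n = 3) to 495 ± 217 at 96 h and from 0.879 ± 0.773 to 1594 ± 741 at 144 h, with a difference of 2.40 ± 0.56 (SE, adjusted p = 0.202) that depends on the pseudocount. OAS3, a sensor of double-stranded RNA that makes the activator of RNase L, was not called at 96 h (7929 ± 1137 untreated, 7440 ± 322 with DAC, SD, n = 3, effect −0.08) and was higher at 144 h (7497 ± 1016 and 13870 ± 1996, effect 0.89), with a difference of 0.97 ± 0.24 (SE, adjusted p = 0.308). The exception among the 16 at an unadjusted p below 0.05 was TNFSF10, the death ligand TRAIL, with effects of 4.58 and 3.34 and a difference of −1.24 ± 0.54 (adjusted p = 0.799).

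The interferon-stimulated response element, the site of the complex of STAT and IRF proteins, was looked for on either strand as a pair of GAAA words with any 2 bases between them. It was present in the 250 bases before at least 1 start in 29 of the 40 tested interferon-stimulated genes with a RefSeq entry (72.5%), and in 1014 of all 27305 genes with an entry (3.71%). The 3 genes named above held it, and 150 bases are shown for each with matches in capitals, IFI44L from chr1:78620259-78620408, OAS3 from chr12:112938324-112938473 and RSAD2 from chr2:6877562-6877711 (all plus strand, GRCh38.p14).
IFI44L: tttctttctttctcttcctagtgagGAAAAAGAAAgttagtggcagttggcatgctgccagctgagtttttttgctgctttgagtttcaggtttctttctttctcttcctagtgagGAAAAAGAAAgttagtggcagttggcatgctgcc
OAS3: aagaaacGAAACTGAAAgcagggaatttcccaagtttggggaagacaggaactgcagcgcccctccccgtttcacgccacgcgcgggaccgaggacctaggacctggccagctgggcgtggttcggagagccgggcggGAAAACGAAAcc
RSAD2: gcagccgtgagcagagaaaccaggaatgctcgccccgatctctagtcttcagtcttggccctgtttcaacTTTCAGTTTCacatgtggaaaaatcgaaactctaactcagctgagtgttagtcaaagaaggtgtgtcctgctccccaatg
IFI44L and OAS3 each held 2 matches, and RSAD2 held 1 on the opposite strand.

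Genes of megakaryocytes and platelets, which include THBS1 and ITGB3, were the list with most members past the threshold of the difference. Of 38 listed genes 28 passed the filter. DAC raised 22 at 96 h and 23 at 144 h, against 20.0% and 22.1% of all genes, and lowered none. A difference above 0 was seen in 24 of 28, against 43.4% of all genes. At an unadjusted p below 0.05, 10 were higher and none lower, against 2.56% and 3.32% of all genes. The median difference was 0.69, against −0.08 for all genes tested, and 0.52 over the 18 genes above a mean of 3 reads per library in every group. Without untreated replicate 2 at 96 h it was 0.38. The following members were named after their values were seen. GP1BA, the receptor for von Willebrand factor on platelets, stood at 6.73 ± 4.99 and 464 ± 83.6 (SD, n = 3) at 96 h and at 2.51 ± 1.29 and 1004 ± 91.8 at 144 h, a difference of 2.14 ± 0.46 (SE, adjusted p = 0.142). PF4, platelet factor 4, had effects of 7.69 and 9.61 and a difference of 1.91 ± 0.57 (adjusted p = 0.468). VWF, von Willebrand factor itself, was not called at 96 h (0.64, adjusted p = 0.108) and was higher at 144 h (1.90), with a difference of 1.26 ± 0.43 (adjusted p = 0.62). PPBP, the precursor of a platelet chemokine, rose from 244 ± 114 to 9444 ± 2214 at 96 h and from 261 ± 73.1 to 21940 ± 3713 at 144 h (SD, n = 3), a difference of 1.04 ± 0.43 (SE, adjusted p = 0.772).

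Red cell genes moved in the same direction in part. Of 43 listed erythroid genes 35 passed the filter. At 96 h 18 rose and 2 fell, against 20.0% and 14.0% of all genes. At 144 h 20 rose and 2 fell, against 22.1% and 20.1%. A difference above 0 was seen in 24 of 35, against 43.4% of all genes (median 0.24, and 0.09 without untreated replicate 3 at 144 h). The other 11 were below 0, down to −1.08. Over the 31 genes above a mean of 3 reads per library in every group, 21 were above 0 (median 0.22). The median effect of these 31 was 0.84 at 96 h and 0.81 at 144 h, so it did not grow. KEL, the Kell blood group protein, named after its values were seen, went from 3.09 ± 1.25 to 69.4 ± 27.1 (SD, n = 3) at 96 h and from 2 reads in all to 156 ± 27.7 at 144 h, a fitted difference of 2.77 ± 0.62 (SE, adjusted p = 0.142). GATA1, a factor that directs both lineages, stood at 49.3, 23.6 and 24.6 untreated and 1064, 851 and 1025 with DAC at 96 h, and at 31.9, 49.8 and 17.1 untreated and 1037, 1153 and 1310 with DAC at 144 h. Its effects were 4.95 and 5.22, and the difference of 0.27 ± 0.43 had an interval of −0.61 to 1.16 and changed sign without untreated replicate 1 at 96 h or untreated replicate 3 at 144 h.

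Most of the tested globin genes rose at both harvests. Of 10 listed genes 6 passed the filter, 3 of these 6 near 0 in a group, so that they could pass through the treated libraries alone. At 96 h 5 rose and at 144 h 6, against 20.0% and 22.1% of all genes, and none fell. A difference above 0 was seen in 5 of 6, against 43.4% of all genes (median 0.93, and 0.64 over the 3 above a mean of 3 reads per library in every group). Without untreated replicate 2 at 144 h the median was 0.55. HBE1, the embryonic epsilon globin, had no read in any untreated library, and stood at 51.1, 36.6 and 55.8 with DAC at 96 h and at 134, 141 and 208 at 144 h. Against a floor of 3 reads over the untreated group it was at least 46.9-fold higher at 96 h and at least 166-fold higher at 144 h. The fetal globin HBG1, which shares reads with its near-identical copy HBG2, rose from 6.72, 3.07 and 3.65 to 2951, 1795 and 1222 at 96 h and from 9.44, 2.37 and 14.9 to 5616, 6718 and 8344 at 144 h. Its difference of 1.22 ± 0.68 (−0.19 to 2.63) did not pass the test (adjusted p = 0.866).

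**Figure D5:**
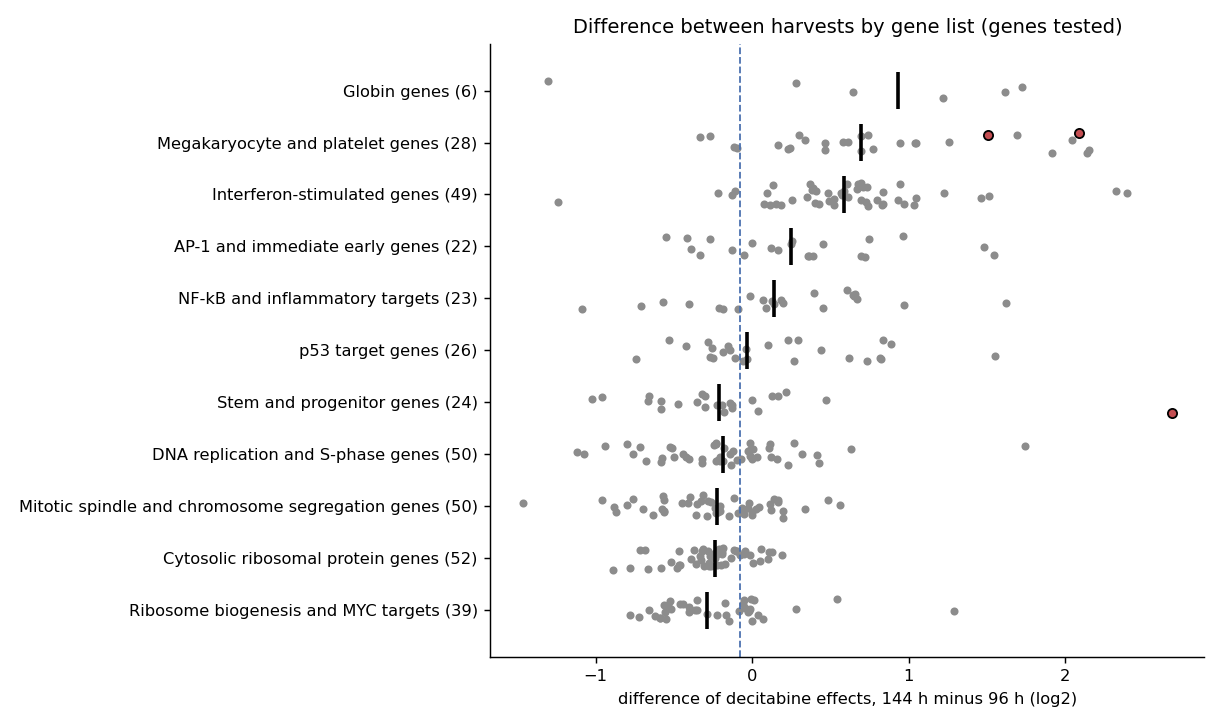
Difference of decitabine effects (log2, 144 h minus 96 h) of each tested member of 11 gene lists, with the list median as a bar, the median of all genes tested (−0.08) as a dashed line and members past the threshold in red. The medians of the globin (0.93), megakaryocyte (0.69) and interferon (0.59) lists lie to the right, and those of the ribosome lists (−0.29 and −0.24) to the left.

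Signalling targets were mixed. Of 29 listed NF-kB and inflammatory targets 23 passed the filter. At each harvest 20 rose, against 20.0% of all genes at 96 h and 22.1% at 144 h, and 15 of 23 had a difference above 0, against 43.4% of all genes. The median of 0.14 rested on single libraries: 7 of the 12, left out in turn, moved it by over 1.5 times, between 0.08 without untreated replicate 3 at 144 h and 0.33 without DAC replicate 2 at 96 h. IL1B, interleukin 1 beta, had the smallest p of the list and went the other way. It stood at 435, 386 and 457 untreated and 1096, 943 and 987 with DAC at 96 h, and at 462, 486 and 442 untreated and 582, 713 and 721 with DAC at 144 h. Both rises were called (1.24 and 0.53), and the difference of −0.71 ± 0.19 (−1.10 to −0.32) did not pass the test (adjusted p = 0.333). Of 24 immediate early and AP-1 genes 22 passed the filter. At each harvest 15 rose, against 20.0% of all genes at 96 h and 22.1% at 144 h. A difference above 0 was seen in 14 of 22, against 43.4% of all genes (median 0.25). Of the 12 libraries 4 moved this median by over 1.5 times, the most untreated replicate 1 at 144 h, without which it was 0.01. DUSP1, a phosphatase that switches off MAP kinases, led with effects of 0.69 and 1.65 and a difference of 0.96 ± 0.34 (0.25 to 1.67, adjusted p = 0.678).

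Germline genes, textbook targets of demethylation, were raised at both harvests with differences on either side of 0. Of 52 listed cancer-testis antigens 19 passed the filter, which they could do through the treated libraries alone. All 19 rose at each harvest, against 20.0% of all genes at 96 h and 22.1% at 144 h. A difference above 0 was seen in 9 of 19, a share near the 43.4% of all genes. The median was −0.07, and up to 0.19 without DAC replicate 1 at 144 h, with 5 of the 12 libraries turning its sign. MAGEB2, a member of the MAGE family on the X chromosome, had no read untreated at 96 h and 811, 770 and 813 scaled reads with DAC, at least 788-fold higher. At 144 h 1 read was left untreated, against 589, 716 and 692 with DAC, a ratio of 2100 with a counting interval of 376 to 82800. DAZL, a germ-cell RNA-binding protein, had no untreated read at either harvest and stood at 756, 654 and 814 and then at 567, 574 and 617, at least 730-fold and at least 615-fold higher. The member with the smallest p was MAGEA10, with 0, 9.59 and 3.91 with DAC at 96 h and 18.3, 15.6 and 18.7 at 144 h, and no untreated read at either (adjusted p = 0.639). Of 50 germ-cell and meiosis genes 16 passed the filter, 10 of these near 0 in a group, so that they could pass through other groups alone. At each harvest 14 rose and 2 fell, against 20.0% and 14.0% of all genes at 96 h and 22.1% and 20.1% at 144 h. A difference above 0 was seen in 6 of 16, a share near the 43.4% of all genes (median −0.30, and −0.15 without untreated replicate 1 at 144 h).

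Genes of growth lay on the other side of equal effects. DAC lowered 37 of 50 tested DNA replication genes at 96 h and 38 at 144 h, and 30 and 39 of 50 mitotic spindle genes, and raised none of either. Of all genes it lowered 14.0% at 96 h and 20.1% at 144 h. Differences were below 0 in 37 of 50 and 38 of 50, against 56.6% of all genes, with medians of −0.18 and −0.23. The replication median was −0.12 without untreated replicate 2 at 96 h, and the mitotic median ran from −0.40 without DAC replicate 1 to −0.08 without DAC replicate 2 at 96 h, with DAC replicate 3 at 96 h and untreated replicate 1 at 144 h also moving it by over 1.5 times. Less the median of all genes they were −0.10 and −0.15 as reported and came as near to 0 as −0.02 and −0.05 among the alternatives. GINS2, a subunit of the replicative helicase, stood at 4770, 3883 and 4548 untreated and 692, 578 and 633 with DAC at 96 h, and at 4203, 5598 and 5599 untreated and 467, 452 and 457 with DAC at 144 h. It fell at both harvests without overlap, with effects of −2.79 and −3.47, and the difference of −0.68 ± 0.23 (−1.15 to −0.21) did not pass the test (adjusted p = 0.618). CENPM, a kinetochore protein, had effects of −1.83 and −3.29 and a difference of −1.46 ± 0.55 (adjusted p = 0.717).

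Ribosome genes lay on the same side with smaller effects. Of 39 listed and tested genes that build ribosomes or are targets of MYC, 16 fell and 1 rose at 96 h, 26 fell and 1 rose at 144 h, and 32 had a difference below 0 (median −0.29). Of 52 tested cytosolic ribosomal protein genes 10 fell at 96 h and 21 at 144 h, none rose, and 45 had a difference below 0 (median −0.24). Of all genes 14.0% fell at 96 h and 20.1% at 144 h, and 56.6% had a difference below 0. Less the median of all genes, both list medians, −0.21 and −0.16, were also below 0 in all 25 alternatives. RPL29 stood at 1321, 1189 and 1369 untreated and 755, 590 and 714 with DAC at 96 h, and at 1279, 1472 and 1451 untreated and 427, 481 and 490 with DAC at 144 h. Its effects were −0.92 and −1.59, and the difference of −0.67 ± 0.19 did not pass the test (adjusted p = 0.408). WDR12, a factor of the large ribosomal subunit, was not called at 96 h (0.09) and fell by 0.48 at 144 h, with a difference of −0.56 ± 0.18 (adjusted p = 0.572). No member of the replication, mitosis or ribosome lists passed the test of the difference, and 4 of 50, 1 of 50, 3 of 39 and 5 of 52 were lower at an unadjusted p below 0.05, against 3.32% of all genes. At that level 1 replication gene was higher.

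The enzymes that decitabine targets and the cell-cycle inhibitors were measured at both harvests with differences that did not pass the test. DNMT1, the maintenance methyltransferase, fell from 472, 433 and 375 to 162, 174 and 192 at 96 h and from 412, 407 and 439 to 229, 218 and 212 at 144 h, effects of −1.27 and −0.93 with a difference of 0.34 ± 0.29 (−0.25 to 0.94). DNMT3B, a de novo methyltransferase, had effects of −2.59 and −2.83 (difference −0.24 ± 0.61). CDKN1A, the inhibitor p21, had effects of 1.70 and 2.53 (difference 0.82 ± 0.60, −0.42 to 2.07). CDKN2B, the inhibitor p15 and a known target of methylation in AML, had 2 untreated reads at each harvest, and was 260 times higher at 96 h (counting interval 71.7 to 2150) and 228 times at 144 h (62.6 to 1890). MYC had effects of −0.87 and −1.22 (difference −0.35 ± 0.39), and CD34, a progenitor marker, of −0.85 and −1.52 (difference −0.67 ± 0.29, −1.26 to −0.07, adjusted p = 0.788).

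Some strong responses were nearly equal at both harvests within narrow limits. FCGR2A, an Fc receptor for IgG, stood at 134, 130 and 163 untreated and 667, 715 and 681 with DAC at 96 h, and at 163, 161 and 125 untreated and 679, 704 and 732 with DAC at 144 h. The groups were apart by nearly the same amount, with a difference of −0.03, whose sign turned in 10 alternatives, and an interval of −0.48 to 0.42. BHLHE40, a transcription factor, had effects of 1.84 and 1.89 (interval of the difference −0.34 to 0.44), and RXRA, the retinoid X receptor, had effects of −1.66 and −1.63 (−0.34 to 0.39). These were named because the interval lay within 1.5-fold either way, which held for 197 of the genes called at both harvests.

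The same difference between harvests in UCSD-AML1 passed the threshold for 19 genes (0.106%), and the change between harvests differed between the lines for 3 genes (0.0168%). AC005394.2 was 1 of them, with a difference of 3.91 in ELF-153 and 0.30 in UCSD-AML1 (3.61 ± 0.61 between the lines, adjusted p = 0.0371). RSAD2 was another, at 1.23 in ELF-153 and −1.06 in UCSD-AML1 (2.28 ± 0.37, adjusted p = 0.0265). The third was CHAC1, an enzyme of glutathione breakdown, at 0.31 in ELF-153 and −4.21 in UCSD-AML1 (4.52 ± 0.54, adjusted p = 0.000483). For the other 6 genes described in ELF-153 the test between the lines did not pass the threshold (adjusted p of 0.0813 for RCAN1 and for ITGB3, 0.129 for MECOM, 0.174 for F2RL2, 0.397 for PTGER4 and 0.691 for THBS1), so their change is not shown to belong to ELF-153 alone.

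Markers of the labelled cells and of others were read in the same libraries. Of 10 AML blast markers 9 were matched, and their sum was 6250 to 9900 scaled reads untreated and 6270 to 8490 with DAC, with MPO at or near 0. Most of this sum was LYL1 and ANPEP, and other members moved in opposite directions. The mean of CD33 fell from 507 to 225 at 96 h and from 483 to 147 at 144 h, and CD34 from 320 to 177 and from 338 to 118. CD38 rose from 0.373 to 35.3 and from 0.968 to 26.2, and PTPRC from 169 to 282 and from 180 to 248. Markers of macrophages and dendritic cells summed to 0 to 2.05 untreated, 10.5 to 21.5 with DAC at 96 h and 33.8 to 61.5 with DAC at 144 h, with MARCO and C1QB at 0 in all 12 libraries. Most of this rise was CD1C, at a mean of 9.21 with DAC at 96 h and 36.6 at 144 h, while CD163, MSR1 and TREM2 stayed near 0. T and NK cell markers summed to 223 to 280 untreated and 503 to 685 with DAC, with CD8A and KLRD1 at 0 throughout. CD2, named after its values were seen, had effects of 3.94 and 6.08 with a difference of 2.13 ± 0.46 (adjusted p = 0.142). The mean of CD3G rose from 5.33 to 96.4 at 96 h and from 3.26 to 98.6 at 144 h. Others went the other way: NCAM1 fell from 51.8 to 30.1 and from 39.9 to 30.7, and PRF1 from 17.5 to 13.6 and from 16.7 to 5.8. CD3E, LCK, GZMB and GNLY stayed near 0. B cell markers summed to 526 to 819 untreated and 430 to 529 with DAC, with MS4A1 and FCRLA at 0. Fibroblast and endothelial markers summed to 0 to 10.2 untreated, 61.6 to 63.7 with DAC at 96 h and 66.1 to 103 at 144 h. Mast cell and basophil markers summed to 2480 to 2770 untreated, 3530 to 4020 with DAC at 96 h and 2730 to 3230 at 144 h, with TPSB2 at 0 in all libraries. Most of this sum was GATA2, with means of 2360 untreated and 2950 with DAC at 96 h and 2320 and 2360 at 144 h. KIT, also an AML blast marker, had 291 and 489, and 339 and 365. HDC rose from 0.949 to 182 and from 3.46 to 230, while MS4A2 and CMA1 stayed near 0. Their part in the results was not tested.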

How the data were processed

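The deposited values are signal: reads per transcript divided by the authors' size factor per library, in 1 table per harvest, as the values show. Within a tolerance of 0.01, 100% of values were whole multiples of a library's step, so reads were recovered. The submitters' processing notes list hg19 and the tools STAR, TopHat2, HTSeq, FastQC and DESeq2, without versions or roles. Of 204940 transcripts, 181859 (88.7%, with 97.8% of the value) were summed to genes by GENCODE 29 identifiers (GRCh38, names only) and the others stayed single.

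limma 3.58.1 (R 4.3.3) fitted the means of 8 groups over 24 libraries (eBayes, trend, robust) to log2(gene sum + 1), so fold changes are on that scale and understate low genes. Genes at 10 or more in at least 3 of the 12 ELF-153 libraries were tested, with Benjamini-Hochberg adjustment over all and a threshold of 0.05. Intervals are 95%; counting intervals, exact binomial, cover counting error only. Alternatives were edgeR 4.0.16 (TMM, RLE), DESeq2 1.42.0, limma-voom, other filters, pseudocounts 0.5 and 8, other scalings, a mitochondrial rRNA covariate, ELF-153 libraries alone, a replicate block, and leaving out each library. The fit was tested on simulated data.

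Members and gene lists were chosen with earlier results of these data known. Genes named by rule were the largest differences past the threshold (clone names, pseudogenes and near-0 genes left out), the list members with the smallest p, a fixed set, called genes of opposite sign, strong responses with narrow intervals and the largest bounds, some left out for length. Of the 8 genes called, 1 is not reported here. Promoters are 250 bases before RefSeq starts. Figures used Python 3.11.15 and matplotlib 3.10.9. Repeat families, tabulated at 96 h, were not used here.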

Additional observations from a re-analysis of the deposited data

Results flagged for a closer look

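The decitabine effect of 7 genes described here differed between the harvests of ELF-153, all with the larger rise at 144 h (log2 differences). These were 3.91 for AC005394.2, 2.09 for THBS1, 1.51 for ITGB3, 2.07 for RCAN1, 1.76 for PTGER4, 2.68 for MECOM and 2.79 for F2RL2. The change between harvests differed between ELF-153 and UCSD-AML1 for 3 genes, by 4.52 for CHAC1, 2.28 for RSAD2 and 3.61 for AC005394.2.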

How the results depend on the processing

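The count of genes with a higher effect at 144 h (8, with 0 lower) moved most. It was 23 with 2 lower in DESeq2, 2 in limma-voom, 2 with the 12 ELF-153 libraries only, 34 with 1 lower at a pseudocount of 8, and 41 with 19 lower with a covariate for mitochondrial rRNA; the cause was not tested. Leaving out 1 library gave 4 to 15 higher and 0 to 2 lower genes, with 15 and 2 without untreated replicate 1 at 144 h. At each harvest, leaving out 1 library gave 2690 to 3802 higher and 1867 to 2613 lower genes at 96 h, and 3209 to 4516 higher and 2947 to 3684 lower at 144 h. A filter of 50 in 3 libraries, which tests fewer genes, left 2570 higher genes at 144 h. With the replicate number as a block 2 genes were higher and 0 lower. Whether equal numbers pair the samples was not settled. The correlation of deviations of equal number was 0.30, 0.34 and −0.05 at 96 h and −0.24, −0.31 and 0.16 at 144 h. For unequal numbers it ran from −0.34 to 0.12 at 96 h and from −0.30 to 0.45 at 144 h. Of 60 genes followed, 13 had a difference of the other sign in at least 1 alternative; none of these was called as reported, their differences were at most 0.35 in size, and the smallest adjusted p at the other sign was 0.928. By call, 1421 of the values of single results stayed on their side of the threshold, 58 lost the call and 13 gained it. The sum over only the transcripts listed in both tables was not run, since both list the same 204940. Depth limits genes near 0, whose fitted differences move with the pseudocount.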

Other observations

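NENF and C6orf226, chosen after their values were seen, were the 2 genes called at both harvests with opposite signs. NENF, a secreted neurotrophic factor, had effects of −1.60 and 1.81, a difference of 3.41 ± 0.74 (adjusted p = 0.142), and C6orf226 of 0.94 and −1.01, a difference of −1.95 ± 0.51 (adjusted p = 0.324). The NENF difference passed the threshold in limma without untreated replicate 1 at 144 h (4.01, adjusted p = 0.0178), without DAC replicate 1 at 96 h (3.95, adjusted p = 0.0415), at a pseudocount of 8 (2.18, adjusted p = 0.0448) and with the mitochondrial covariate (3.31, adjusted p = 0.0455).

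Of 2427 processed pseudogenes tested, 375 fell at 96 h (15.5%, against 14.0% of all genes) and 729 at 144 h (30.0%, against 20.1%), while 217 and 235 rose. A difference above 0 was seen in 709 (29.2%, median −0.27), against 44.6% of 11206 protein-coding genes (median −0.06). Whether these shares differ was not tested. Reads of such copies can be shared with their parent genes, many of which encode ribosomal proteins, and no source used here says how the authors handled shared reads.

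STX11, a gene of granule release in lymphocytes named after its values were seen, passed the threshold in 5 alternatives and not as reported (difference 1.37 ± 0.29, adjusted p = 0.139). It stood at 73.9, 45.1 and 50.1 untreated and 393, 359 and 402 with DAC at 96 h, and at 34.8, 36.7 and 56.6 untreated and 676, 727 and 885 with DAC at 144 h.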
